A study of Mus musculus with 21 samples.

Results

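Of the 55291 gene names measured in embryonic stem cells (ESCs) at 0, 60 and 80 mM sodium lactate, 9 form a set of osmotic stress and osmolyte genes. They were chosen by name and not by a rule on measured values, but with earlier results of these data known. The set is meant as a reading of the salt load that sodium lactate brings. The 9 are Nfat5, Sgk1, Slc6a12, Slc5a3, Slc6a6, Slc38a2, Akr1b3, Aqp3 and Hspa4l. In a second experiment, on cell states, 8 of the 9 were measured among 21161 names, and Slc6a12 was not analysed here.

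The study sequenced total RNA of mouse cells in 21 libraries, 3 per group. The cell states were 2-cell-like cells (2CLCs), which resemble blastomeres of the early embryo, ESCs, epiblast stem cells (EpiSCs), which resemble the later epiblast, and mouse embryonic fibroblasts (MEFs). The other 3 groups were ESCs at 0, 60 or 80 mM sodium lactate, the sodium salt of the end product of glycolysis. The labels give OG2 as the cell line of every group, MEFs included, and the treatment as WT for the 4 cell states and the 0 mM ESCs. They give neither how the 2CLCs were obtained, nor how long lactate was applied, nor whether replicates were separate cultures. The p-values therefore refer to the spread among these libraries, which may be technical. No group with another sodium salt or with a neutral osmolyte was analysed here, so lactate, sodium and osmolarity cannot be told apart.

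A cell placed in a hypertonic medium shrinks, takes up ions to regain volume, and then exchanges them for small organic solutes, the compatible osmolytes betaine, myo-inositol, taurine, sorbitol and glycerophosphocholine. NFAT5 (also called TonEBP) is the transcription factor that turns on much of this response, by binding tonicity enhancers near the genes for osmolyte transporters, for aldose reductase and for chaperones of the Hsp70 family. Its activity is also set by protein amount, nuclear entry and modification, none of which RNA levels show.

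By GENCODE M21 on GRCm38, all 9 are protein-coding genes. Nfat5 lies on chromosome 8 (107293470 to 107379517, plus strand), Sgk1 on chromosome 10 (21882184 to 21999903, plus) and Slc6a12 on chromosome 6 (121343076 to 121365775, plus). Slc5a3 lies on chromosome 16 (92058322 to 92087473, plus), Slc6a6 on chromosome 6 (91684053 to 91759066, plus) and Slc38a2 on chromosome 15 (96687392 to 96699730, minus). Akr1b3 lies on chromosome 6 (34302434 to 34317478, minus), Aqp3 on chromosome 4 (41092722 to 41098183, minus) and Hspa4l on chromosome 3 (40744495 to 40796103, plus). Slc5a3 shares 159 exon bases with Mrps6, a mitochondrial ribosomal protein gene on the same strand, so the split of FPKM between these 2 is uncertain. Slc6a6 shares 117 exon bases with Gm44981 on the opposite strand, which was at most 0.418 FPKM on average in any lactate group.

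RefSeq start sites on GRCm38.p6 were matched for 7 of the 9 genes, with 16 windows from 250 bases before to 50 after the start. The core of the tonicity enhancer, TGGAAA, was searched on both strands together with the full consensus known as TonE, every match of which also holds the core. The core was found for 2 of the 7 genes, in 3 windows, and it stands in 21.4% of all 32851 windows of that length (23.9% of genes). The full consensus was found in 1 window, that of the first Slc6a12 start, and stands in 4.96% of all windows (5.74% of genes). Shown are the 250 bases before the start, plus strand, 5′ to 3′, for 3 of the genes whose levels were higher at every lactate dose: Slc6a12 at chr6:121342324-121342573, Slc5a3 at chr16:92058072-92058321, and Sgk1 at chr10:21881934-21882183. The windows of Slc6a12 and Sgk1 are those of the start farthest upstream. Slc38a2 and Aqp3 were also higher at both doses, and their windows, not shown, held no core match. Capitals mark the full consensus in Slc6a12 and the core, read on the opposite strand, in Sgk1.
Slc6a12: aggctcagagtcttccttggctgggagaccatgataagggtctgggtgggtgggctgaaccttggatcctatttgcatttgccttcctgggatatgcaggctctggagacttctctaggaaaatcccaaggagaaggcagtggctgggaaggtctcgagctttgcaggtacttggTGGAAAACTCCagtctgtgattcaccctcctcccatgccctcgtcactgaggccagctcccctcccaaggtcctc
Slc5a3: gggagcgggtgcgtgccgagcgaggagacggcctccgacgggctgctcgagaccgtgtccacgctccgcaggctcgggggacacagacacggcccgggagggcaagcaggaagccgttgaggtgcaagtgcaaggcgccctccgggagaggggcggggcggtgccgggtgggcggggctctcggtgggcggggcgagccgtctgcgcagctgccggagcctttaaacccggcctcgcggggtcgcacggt
Sgk1: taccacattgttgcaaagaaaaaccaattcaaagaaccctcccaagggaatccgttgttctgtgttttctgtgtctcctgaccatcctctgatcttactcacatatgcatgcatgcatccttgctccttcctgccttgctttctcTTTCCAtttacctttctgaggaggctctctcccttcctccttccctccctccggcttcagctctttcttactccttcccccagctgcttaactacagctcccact
Counting the base before the start as -1, the Slc6a12 match begins at -75 and the Sgk1 match at -105. A further Sgk1 start had the core at -163 on the gene's own strand. The remaining Sgk1 and Slc6a12 windows held no core match. The Slc5a3 window has a GC content of 74.8% and holds no core match, and its start lies 14 bases from that of Mrps6. These matches describe letters in the windows, and binding was not measured here.

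Values are FPKM, read fragments scaled by transcript length and library size, which allow levels of different genes to be compared. Tests used limma on log2(FPKM + 1) over genes that reached 1 FPKM in 3 or more libraries of an experiment, with Benjamini-Hochberg adjustment over those genes and a threshold of 0.05 for a call, and log2 differences below are on that scale. All 8 measured genes passed this filter for the cell states (16358 genes tested) and 7 of 9 passed it for lactate (13271 tested). Slc5a3 and Hspa4l were under it in ESCs, and Slc6a12 passed it only through its 80 mM level. Summed FPKM per library ran from 375926 to 519915 for the cell states and from 396792 to 409131 for lactate, and read depth is unknown. EpiSC replicate 1 stood apart, with a correlation across genes of 0.973 with each of the other 2 EpiSC libraries, which had 0.995 between them. Marker lists matched the labels of the cell states. Among the 12 cell-state libraries, the summed FPKM of 12 fibroblast genes was 3008 to 3084 in MEFs and at most 108 in the others, that of 10 genes of the 2-cell stage was at least 23792 in 2CLCs and at most 10.7 in the others, and that of primed-state genes was 876 to 921 in EpiSCs and at most 61.2 in the others. The 10 naive-state genes set the states less apart. They summed to 2553 to 2572 FPKM in ESCs, 1547 to 1620 in 2CLCs, 663 to 800 in EpiSCs and 23.4 to 25.8 in MEFs. Trophectoderm genes summed to 364 to 449 FPKM in EpiSCs and primitive endoderm genes to 244 to 251 in MEFs, above their levels in the other states, and their part in the results was not tested.

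In ESCs exposed to lactate, the betaine transporter gene Slc6a12, the kinase gene Sgk1, the amino acid transporter gene Slc38a2 and the aquaporin gene Aqp3 rose at both 60 and 80 mM, and the aldose reductase gene Akr1b3 fell at both. Nfat5 and the taurine transporter gene Slc6a6 were not called at either dose. Slc6a12 entered the test only through its 80 mM level and is left out of the counts that follow. Of the other 6 tested genes, 3 were higher and 1 was lower at 60 mM than at 0 mM, where 42.1% of all tested genes were called (23.5% higher, 18.6% lower). At 80 mM against 0 mM the count was again 3 higher and 1 lower, where 53.1% of all genes were called (30% higher, 23.1% lower). At 80 against 60 mM, 2 were higher, where 6.17% of all genes were called (4.06% higher, 2.11% lower). The 2 doses share their 0 mM libraries, so their differences from 0 mM are not independent. Sgk1 and Slc38a2 were called higher in each of the 3 comparisons, as were 419 of the 13271 genes (3.16%).

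**Figure D1:**
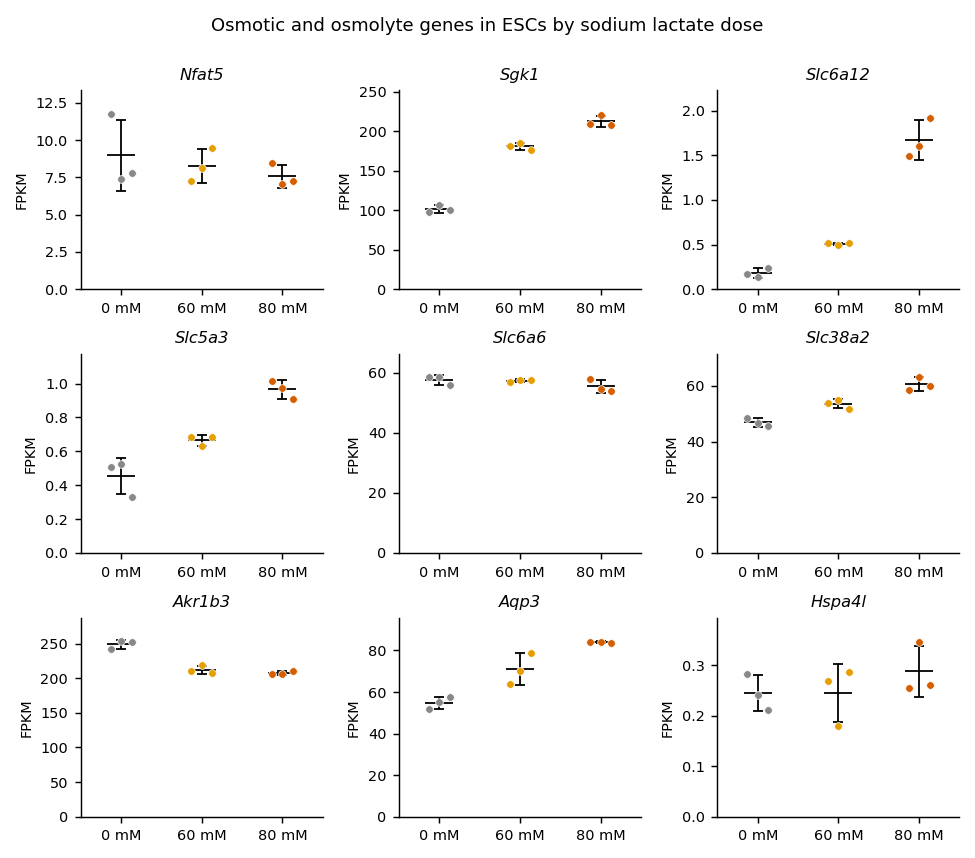
FPKM (vertical axes, linear, from 0) of the 9 genes in ESCs at 0, 60 and 80 mM sodium lactate. Points are the 3 libraries of a group, bars the mean and whiskers the SD. Sgk1, Slc6a12, Slc5a3, Slc38a2 and Aqp3 are higher at each higher dose with no overlap, Akr1b3 is lower at both doses, and Nfat5, Slc6a6 and Hspa4l overlap. Of all tested genes, 53.2% did not overlap at 60 against 0 mM, 60% at 80 against 0 mM and 28.5% at 80 against 60 mM.

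Nfat5 itself stood at 11.8, 7.40 and 7.81 FPKM in the 3 libraries at 0 mM, at 7.24, 8.12 and 9.45 at 60 mM, and at 8.48, 7.04 and 7.24 at 80 mM. The groups overlapped, and 1 of the 0 mM libraries was above all others. The log2 difference was -0.09 at 60 mM (95% interval -0.43 to 0.25, adjusted p = 0.676) and -0.20 at 80 mM (-0.53 to 0.14, adjusted p = 0.305).

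Sgk1 encodes a serine/threonine kinase that is induced by serum, glucocorticoids and cell shrinkage and promotes sodium and nutrient transport. It stood at 98.1, 107 and 99.96 FPKM at 0 mM, at 182, 186 and 176 at 60 mM, and at 209.8, 221 and 208 at 80 mM. Every library at a higher dose was above every library at a lower dose. Groups without overlap, in either direction, were common: 53.2% of all tested genes at 60 against 0 mM, 60% at 80 against 0 mM and 28.5% at 80 against 60 mM. The same shares stand beside each gene below. The mean was 1.78-fold higher at 60 mM (log2 difference 0.83, SE 0.0378, adjusted p = 3.36e-07) and 2.09-fold higher at 80 mM (1.06, adjusted p = 3.04e-08). It was 1.17-fold higher at 80 than at 60 mM (0.23, adjusted p = 0.00815). Of all tested genes, 2.86% had a higher log2 difference than Sgk1 at 80 mM. In the ESCs of the cell-state experiment Sgk1 stood at 170.2 to 176 FPKM, above the 0 mM libraries here. That gap between experiments was not tested.

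Among the osmolyte transporters, Slc6a12 encodes BGT1, which carries betaine and GABA into cells. Its level was 0.164, 0.133 and 0.240 FPKM at 0 mM, 0.517, 0.491 and 0.515 at 60 mM, and 1.49, 1.61 and 1.92 at 80 mM. The 3 groups did not overlap, and all levels were low beside those of Sgk1 or Slc6a6. The mean FPKM was 2.83-fold higher at 60 mM and 9.33-fold higher at 80 mM than at 0 mM, and 3.29-fold higher at 80 than at 60 mM. A gene this low changes by less on the scale of the tests, where the differences were 0.36 (SE 0.1003, adjusted p = 0.0172), 1.18 (adjusted p = 7.38e-06) and 0.82 (adjusted p = 0.00262). Since the gene was tested only because its 80 mM libraries passed 1 FPKM, its calls against that dose are no independent support. The 60 mM call was lost without 0 mM replicate 2 (log2 difference 0.33, adjusted p = 0.0568) and with a pseudocount of 5 (adjusted p = 0.0509), and the difference was 0.05 after quantile normalization (adjusted p = 0.711). The 80 mM call was kept under every alternative that tested the gene. A filter of 5 FPKM and leaving out any 80 mM library left Slc6a12 untested, so that adds no support.

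Slc5a3 encodes SMIT1, the sodium-coupled myo-inositol transporter. Its levels were 0.505, 0.528 and 0.331 FPKM at 0 mM, 0.682, 0.629 and 0.685 at 60 mM, and 1.02, 0.975 and 0.907 at 80 mM. The groups did not overlap in any of the 3 comparisons, as held for 53.2% of the tested genes at 60 against 0 mM, 60% at 80 against 0 mM and 28.5% at 80 against 60 mM. The mean was 1.46-fold higher at 60 mM and 2.12-fold higher at 80 mM than at 0 mM. The exact permutation test gave a two-sided p of 0.1 in each comparison, the smallest that 3 against 3 libraries allow. In a fit with no filter, limma gave log2 differences of 0.20 at 60 mM (adjusted p = 0.161) and 0.44 at 80 mM (adjusted p = 0.00549). Mrps6, with which its reads may be shared, moved alongside, from 11.8 ± 0.984 FPKM at 0 mM to 16.7 ± 1.39 at 60 mM and 20.4 ± 0.644 at 80 mM (SD, n = 3), with limma log2 differences of 0.46 (adjusted p = 0.000628) and 0.74 (adjusted p = 1.72e-05). The part of Mrps6 reads in the Slc5a3 values was not tested.

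Slc6a6 encodes TauT, the taurine transporter, and was expressed far above the other two transporters of compatible osmolytes. It stood at 58.5, 58.6 and 55.7 FPKM at 0 mM, at 56.9, 57.5 and 57.7 at 60 mM, and at 57.8, 54.6 and 53.8 at 80 mM. The groups overlapped. The limma log2 difference at 80 mM was -0.06 (95% interval -0.13 to 0.02, adjusted p = 0.213). With median-of-ratios scaling it was called lower (-0.12, adjusted p = 0.0109).

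Slc38a2 encodes SNAT2, a sodium-coupled transporter of small neutral amino acids that is induced both by hypertonicity and by amino acid shortage. Its levels were 48.6, 46.5 and 45.5 FPKM at 0 mM, 53.7, 55.002 and 51.8 at 60 mM, and 58.3, 63.3 and 59.9 at 80 mM. The groups did not overlap. The mean was 1.14-fold higher at 60 mM (log2 difference 0.19, adjusted p = 0.00475) and 1.29-fold higher at 80 mM (0.36, adjusted p = 4.83e-05). The step from 60 to 80 mM was called (0.17, adjusted p = 0.0354), but it was lost on leaving out any 1 of the 6 libraries compared (adjusted p = 0.0526 to 0.116), under median-of-ratios scaling (0.0581) and with the replicate number as a block (0.0503). It was also lost with no filter, with no mean trend and with only the compared groups in the fit (0.0512 to 0.0881).

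Akr1b3 encodes aldose reductase, which makes sorbitol from glucose and is a classical NFAT5 target in the kidney. At 0 and 60 mM it was the most highly expressed of the 9 genes. Its levels were 241, 254 and 251 FPKM at 0 mM, 209.8, 219 and 207 at 60 mM, and 206, 206 and 210.2 at 80 mM. All lactate libraries were below all 0 mM libraries, and the 2 doses overlapped. The mean was 0.850 times the 0 mM level at 60 mM (log2 difference -0.23, adjusted p = 0.000173) and 0.833 times at 80 mM (-0.26, adjusted p = 4.34e-05). The 2 doses differed by -0.03 (adjusted p = 0.615).

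Aqp3 encodes an aquaglyceroporin, a membrane channel for water and glycerol. It stood at 51.8, 54.997 and 57.7 FPKM at 0 mM, at 63.7, 70.3 and 79.0 at 60 mM, and at 84.3, 84.1 and 83.5 at 80 mM. The groups did not overlap, and the 60 mM libraries were the most spread. The mean was 1.29-fold higher at 60 mM (log2 difference 0.36, adjusted p = 0.00190) and 1.53-fold higher at 80 mM (0.61, adjusted p = 4.23e-05). The step from 60 to 80 mM was not called (0.24, adjusted p = 0.0624). It was called with the replicate number as a block (adjusted p = 0.0461) and without 60 mM replicate 3 (0.32, adjusted p = 0.0171). In the ESCs of the cell-state experiment Aqp3 stood at 8.91 to 10.2 FPKM, far below the 0 mM libraries here. That gap between experiments was not tested.

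Hspa4l encodes a chaperone of the Hsp110 family that was first described as inducible by osmotic stress. Its levels ran from 0.212 to 0.283 FPKM at 0 mM, from 0.179 to 0.286 at 60 mM and from 0.256 to 0.346 at 80 mM, with means below those of Slc5a3 at every dose. The groups overlapped. With no filter the limma log2 difference was 0.00 at 60 mM and 0.05 at 80 mM (adjusted p = 1 and 0.577).

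**Figure D2:**
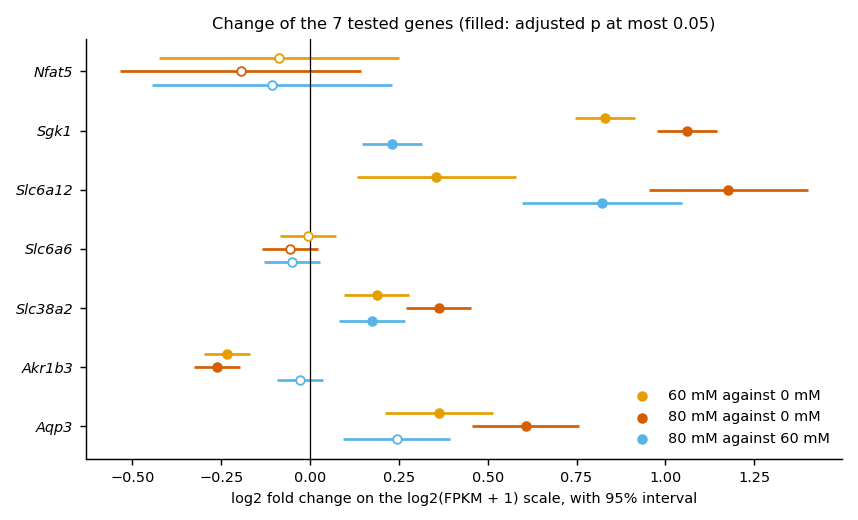
Log2 fold change on the log2(FPKM + 1) scale (horizontal axis) with its 95% interval for the 7 genes tested in the lactate experiment, for 60 against 0 mM, 80 against 0 mM and 80 against 60 mM. Filled points passed an adjusted p of 0.05. Slc6a12 at 1.18 and Sgk1 at 1.06 reach furthest at 80 mM, Akr1b3 alone is called lower, and the intervals of Nfat5 and Slc6a6 cover 0.

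The median log2 difference of the 6 genes tested other than Slc6a12 was 0.09 at 60 mM and 0.15 at 80 mM against 0 mM, beside 0.03 and 0.03 over all tested genes. At 80 against 60 mM it was 0.07, beside 0.01. The share of calls that were higher depended on scaling: at 80 against 0 mM it was 56.5%, or 45.5% under median-of-ratios scaling, and at 80 against 60 mM the same shares were 65.8% and 49.1%. Directions of the 5 called members, Slc6a12 included, at either dose against 0 mM were the same under both other scalings. Slc6a12 at 60 mM was not called after quantile normalization (0.05, limma adjusted p = 0.711). Marker levels moved with lactate too, and their part in these results was not tested. The 10 genes of the 2-cell stage summed to 59.2 to 66.2 FPKM at 0 mM, 133 to 147 at 60 mM and 207 to 219.6 at 80 mM, and the 10 naive-state genes to 2855 to 2922, 3056 to 3125 and 3151 to 3254. Trophectoderm genes summed to 28.2 to 28.4, 34.2 to 35 and 41.3 to 45.8 FPKM. The 12 fibroblast genes summed to 162 to 178, 63.0 to 69.1 and 55.1 to 57.2 FPKM. That fall was in Vim, which stood at 158 to 174 FPKM at 0 mM and 46.7 to 49.5 at 80 mM, while the other 11 summed to 4.10 to 4.37 FPKM at 0 mM, 5.77 to 6.71 at 60 mM and 7.79 to 8.38 at 80 mM. Thy1 was the highest of these at 80 mM (3.98 to 4.18 FPKM, and 0.456 to 0.553 at 0 mM), S100a4 was listed at 0 at 0 mM and stood at 0.334 to 0.682 at 80 mM, and the collagen genes Col1a1, Col1a2 and Col3a1 were each at most 0.183 FPKM in any lactate-experiment library. In such bulk samples, fewer cells of a type and less RNA per cell cannot be told apart.

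Further genes of the osmotic response were described as lists that do not hold the 9 genes. Of all tested genes, 23.5% were called higher and 18.6% lower at 60 mM, and 30% and 23.1% at 80 mM. The median log2 difference over all genes was 0.03 at each dose. These values stand beside every list below, and a list count near these shares says little about the list. Of 34 genes of osmolyte transport, synthesis and breakdown, 23 were tested, of which 8 were higher and 2 lower at 60 mM, and 11 higher and 2 lower at 80 mM (10 and 6 with median-of-ratios scaling), with a median log2 difference at 80 mM of 0.22 beside 0.03 over all genes. Bhmt, the enzyme that consumes betaine to remethylate homocysteine, went from 3.07 ± 0.227 FPKM at 0 mM to 13.7 ± 0.824 at 60 mM and 22.6 ± 1.89 at 80 mM (SD, n = 3), with limma log2 differences of 1.85 (adjusted p = 1.41e-07) and 2.54 (adjusted p = 7.14e-09). Sord, which turns sorbitol into fructose, went from 7.89 ± 0.324 to 12.8 ± 0.958 and 17.3 ± 0.447 FPKM (0.64 and 1.04, adjusted p = 2.94e-05 and 5.93e-07). In the cell-state experiment Sord was 90.9 ± 3.80 FPKM in 2CLCs and 3.05 ± 0.195 in ESCs (log2 difference 4.51, limma adjusted p = 1.14e-13). The part of 2-cell-like cells in its rise with lactate was not tested. Gpcpd1, which cleaves glycerophosphocholine, went from 4.38 ± 0.682 to 6.58 ± 0.519 and 7.23 ± 0.375 FPKM (0.50 and 0.62, adjusted p = 0.00189 and 0.000320). Slc6a8, the creatine transporter gene, which is also a relative of Slc6a12 and Slc6a6, was 60.7 ± 5.63, 69.8 ± 1.79 and 91.7 ± 2.35 FPKM (0.20 and 0.59, adjusted p = 0.0177 and 1.75e-05). At 80 against 60 mM, Bhmt, Sord and Slc6a8 were called higher (0.69, 0.41 and 0.39, adjusted p = 0.00153, 0.00497 and 0.00525) and Gpcpd1 was not (0.12, adjusted p = 0.490).

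Of 40 genes of osmosensing and volume regulation, 32 were tested, of which 14 were higher and 3 lower at 60 mM and 17 higher and 5 lower at 80 mM. With median-of-ratios scaling these counts were 12 and 6 at 60 mM and 14 and 7 at 80 mM. The median log2 difference was 0.06 at 60 mM and 0.12 at 80 mM, or 0.02 and 0.06 with that scaling. Wnk3, a kinase that controls cation-chloride cotransporters, went from 6.15 ± 0.141 FPKM at 0 mM to 14.5 ± 0.310 at 60 mM and 17.7 ± 0.332 at 80 mM, with limma log2 differences of 1.11 (adjusted p = 1.41e-07) and 1.39 (adjusted p = 1.31e-08). Lrrc8d, a subunit of the volume-regulated anion channel, fell from 15.7 ± 1.35 to 11.9 ± 0.595 and 10.3 ± 0.374 FPKM (-0.38 and -0.56, adjusted p = 0.00131 and 6.18e-05). Map2k6, a kinase upstream of p38, was 10.6 ± 0.464 FPKM at 80 mM and 7.06 ± 0.365 at 0 mM (0.53, adjusted p = 4.36e-05).

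Of 26 further genes linked to NFAT5, 12 were tested, with 5 higher and 3 lower at 60 mM and 6 higher and 3 lower at 80 mM. Ccn1, a matricellular protein gene, was 26.01 ± 1.29 FPKM at 0 mM and 37.0 ± 0.902 at 80 mM (log2 difference 0.49, adjusted p = 1.11e-05). Slc4a11, a membrane transporter gene of the bicarbonate transporter family, was 5.51 ± 0.238 and 8.48 ± 1.24 FPKM (0.53, adjusted p = 0.00247), and was not called at 60 mM (0.28, adjusted p = 0.0658). Hspa1b, an inducible Hsp70, was 3.47 ± 0.288 and 5.86 ± 0.575 FPKM (0.62, adjusted p = 0.000207), a value that is uncertain because Hspa1a is a near-identical copy. Among the lower genes, Hspb1, a small heat shock protein gene, was 437 ± 15.2 FPKM at 0 mM and 345 ± 9.54 at 60 mM (-0.34, adjusted p = 6.04e-05), and Vegfc, a growth factor gene for lymphatic vessels, was 8.05 ± 0.290 and 6.58 ± 0.242 (-0.26, adjusted p = 0.0288). Of 11 aquaporin genes other than Aqp3, 2 were tested and both, Aqp9 and Mip, were called higher at both doses. Under the other scalings only 1 of these 2 was called at 80 mM, and after quantile normalization only 1 at 60 mM. In the cell-state experiment Aqp9 was 92.7 ± 6.98 FPKM in 2CLCs and 0.0967 ± 0.0337 in ESCs (log2 difference 6.41, limma adjusted p = 1.59e-14). The part of 2-cell-like cells in its rise with lactate was not tested.

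Of 30 relatives of the 9 genes, 21 were tested, with 6 higher and 4 lower at 60 mM (2 and 4 with median-of-ratios scaling) and 8 higher and 4 lower at 80 mM (6 and 5 with that scaling). Slc38a4, an amino acid transporter of the same family as Slc38a2, rose from 38.2 ± 1.10 FPKM at 0 mM to 66.1 ± 0.532 at 60 mM and 80.2 ± 3.59 at 80 mM, with limma log2 differences of 0.77 (adjusted p = 4.82e-07) and 1.05 (adjusted p = 3.20e-08). Slc38a1 of that family fell, from 24.2 ± 1.53 to 19.6 ± 0.983 and 20.5 ± 1.05 FPKM (-0.29 and -0.23, adjusted p = 0.00295 and 0.00741).

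Some of the 9 genes answer to other signals than tonicity, and lists for these signals were counted as well. Amino acid shortage induces Slc38a2 through the transcription factor ATF4. Of 28 genes of that response, 25 were tested, of which 1 was higher and 20 were lower at 60 mM and 2 were higher and 18 lower at 80 mM, with medians of -0.34 and -0.29. Nupr1, a stress-induced chromatin protein gene, fell from 13.8 ± 1.40 to 3.50 ± 0.424 and 5.24 ± 1.92 FPKM (-1.71 and -1.28, adjusted p = 5.60e-05 and 0.000198), and Atf5 from 17.3 ± 1.26 to 6.62 ± 0.356 and 6.96 ± 1.20 FPKM (-1.27 and -1.21, adjusted p = 1.23e-05 and 7.05e-06). Ddit4, an inhibitor of mTORC1 signalling, rose from 6.31 ± 0.426 to 12.3 ± 0.392 and 17.3 ± 0.301 FPKM (0.87 and 1.33, adjusted p = 2.65e-06 and 7.21e-08).

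Of 18 heat shock genes, all of which were tested, 7 were higher and 8 lower at each dose. With median-of-ratios scaling 5 were higher and 9 lower at 60 mM, and 6 and 10 at 80 mM. Bag3, a co-chaperone, was 19.0 ± 0.845 FPKM at 0 mM and 25.5 ± 0.825 at 80 mM (0.41, adjusted p = 2.96e-05). Hspb1, given above as lower at 60 mM, is also on this list. Sgk1 is also a target of the glucocorticoid receptor. Of 18 glucocorticoid and serum response genes, 12 were tested, with 3 higher and 6 lower at 60 mM and 5 higher and 6 lower at 80 mM. Fkbp5, a classical glucocorticoid target, fell from 32.8 ± 2.46 to 20.3 ± 0.467 and 19.0 ± 0.840 FPKM (-0.66 and -0.75, adjusted p = 1.79e-05 and 3.36e-06). Errfi1, an inhibitor of the EGF receptor, rose from 4.21 ± 0.184 to 7.86 ± 0.258 and 9.53 ± 0.478 FPKM (0.77 and 1.02, adjusted p = 9.30e-06 and 6.93e-07), and Myc was 29.9 ± 1.87 at 0 mM and 14.5 ± 0.667 at 80 mM (-0.99, adjusted p = 1.80e-06).

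**Figure D3:**
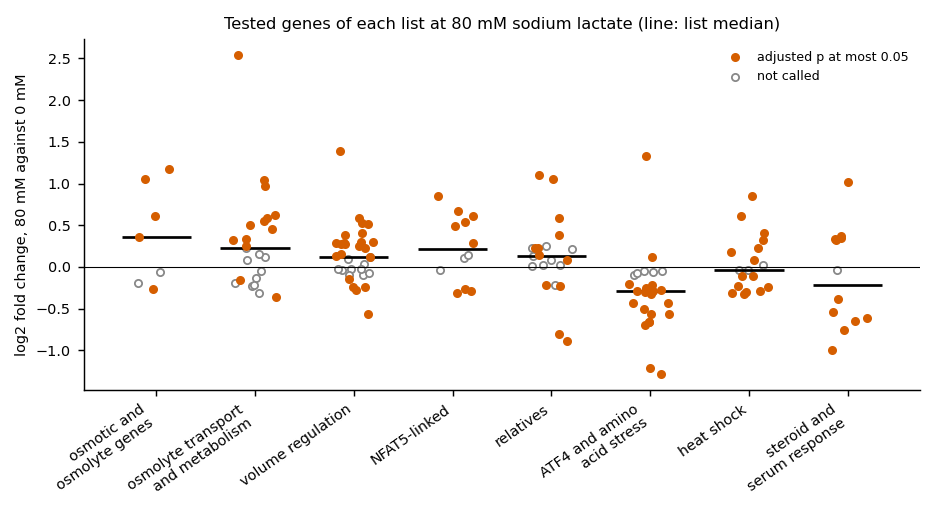
Log2 fold change at 80 mM against 0 mM (vertical axis) of the tested genes of the osmotic set and of 7 further lists, with the median of each list as a line. The osmotic set is drawn with Slc6a12, which was tested only through its 80 mM level. Its line therefore stands at 0.36, where the median without Slc6a12 was 0.15. Filled points passed an adjusted p of 0.05. Bhmt is the highest point at 2.54, and 18 of 25 tested genes of the ATF4 list are called lower, beside 23.1% of all tested genes.

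Across the cell states, for which the labels name no lactate dose, the 8 genes measured there had no common order. MEFs held the highest levels of Nfat5, Slc5a3, Slc6a6 and Hspa4l, ESCs that of Sgk1 and 2CLCs that of Aqp3. Of the 8 tested genes, 1 was higher and 5 were lower in 2CLCs than in ESCs, where 76.5% of all tested genes were called (20.1% higher, 56.4% lower). Under median-of-ratios scaling 2 were higher and 4 lower, and after quantile normalization 1 and 7. In EpiSCs 2 were higher and 5 lower than in ESCs, where 59.7% were called (33.2% higher, 26.5% lower). In MEFs 4 were higher and 3 lower than in ESCs, where 75.3% were called (34.4% higher, 40.9% lower). Between the other states, 2CLCs had 2 higher and 5 lower than EpiSCs (82.1% of all genes called, 23.4% higher and 58.7% lower), 2CLCs had 2 higher and 6 lower than MEFs (84.4%, 33.4% and 51%), and EpiSCs had 1 higher and 6 lower than MEFs (72.4%, 41.9% and 30.5%). Slc5a3 and Hspa4l reached 1 FPKM only in EpiSCs and MEFs, and Aqp3 only in 2CLCs and ESCs. They were tested only through those states, so their calls higher there than in the remaining states, counted above, are no independent support. Over the 6 pairs of cell states, 42 of 48 differences were called (46 without EpiSC replicate 1), a share that says little where most genes are called. Groups that do not overlap were as common, with 82.5% of all tested genes for 2CLCs against ESCs, 63.4% for EpiSCs against ESCs and 83.5% for MEFs against ESCs. For the pairs without ESCs it was 80.6% for 2CLCs against EpiSCs, 88.3% for 2CLCs against MEFs and 73.9% for EpiSCs against MEFs. In 2CLCs the median of all genes against ESCs was -0.46 with 26.3% of all calls higher. Under median-of-ratios scaling these values were 0.02 and 53.2%, so 2CLC differences are to be read against that shift.

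**Figure D4:**
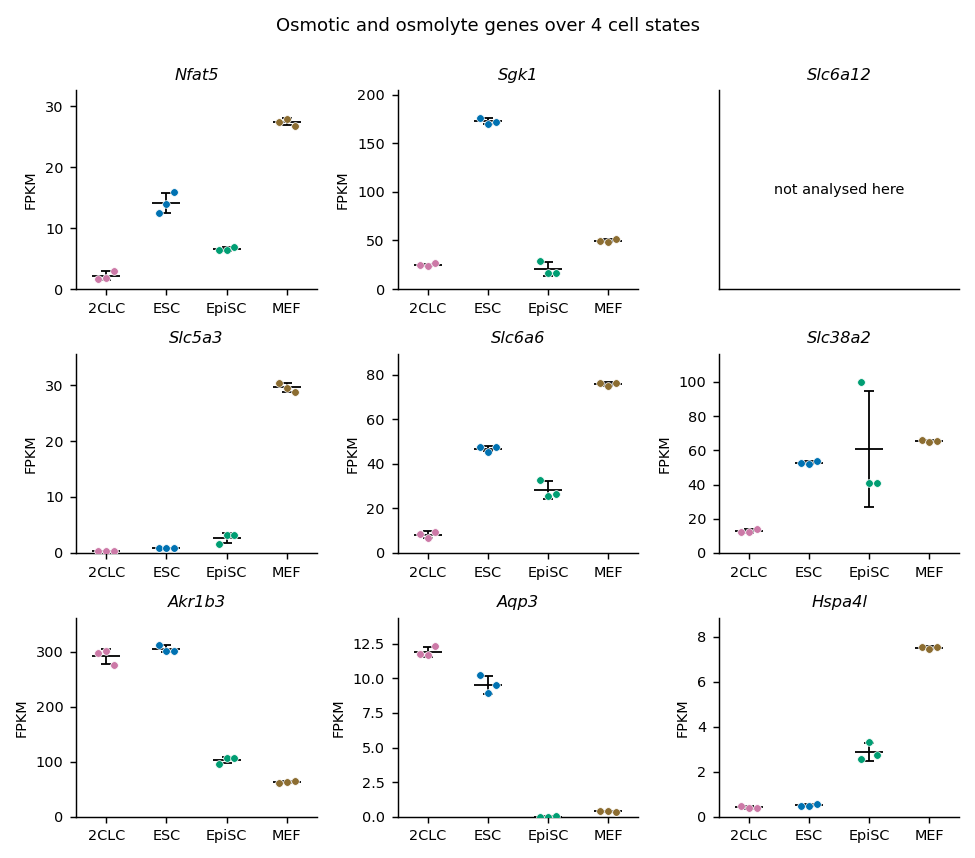
FPKM (vertical axes, linear, from 0) of the genes in 2CLCs, ESCs, EpiSCs and MEFs. Points are the 3 libraries of a group, bars the mean and whiskers the SD. Slc5a3 reaches 28.7 to 30.5 FPKM in MEFs and at most 3.22 elsewhere, Sgk1 is highest in ESCs, and 1 EpiSC library stands apart for Slc38a2.

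Nfat5 was 27.5, 28.0 and 26.8 FPKM in MEFs, 12.5, 14.0 and 15.9 in ESCs, 6.48, 6.40 and 6.98 in EpiSCs, and 1.72, 1.81 and 3.05 in 2CLCs. No groups overlapped, and all neighbours in this order differed. Against ESCs the limma log2 difference was 0.92 in MEFs (SE 0.138, adjusted p = 8.51e-05), -0.98 in EpiSCs (adjusted p = 8.82e-05) and -2.26 in 2CLCs (adjusted p = 4.00e-08), the last of which was -1.66 with median-of-ratios scaling.

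Sgk1 was 176, 170.2 and 172 FPKM in ESCs, 49.5, 48.1 and 51.4 in MEFs, 24.5, 24.0 and 26.5 in 2CLCs, and 29.0, 16.8 and 16.4 in EpiSCs. ESCs stood above all other cell-state libraries, and EpiSCs and 2CLCs overlapped. The log2 difference from ESCs was -1.77 in MEFs, -2.74 in 2CLCs and -3.04 in EpiSCs (limma adjusted p = 1.42e-06, 3.59e-08 and 3.77e-08). 2CLCs and EpiSCs were not called apart (0.30, adjusted p = 0.109), but were without EpiSC replicate 1 (0.56, adjusted p = 6.63e-07) and under median-of-ratios scaling (1.15, adjusted p = 5.87e-05).

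Slc5a3 was 30.5, 29.6 and 28.7 FPKM in MEFs, 1.55, 3.22 and 3.16 in EpiSCs, 0.945, 0.951 and 0.902 in ESCs, and 0.298, 0.259 and 0.292 in 2CLCs. No groups overlapped. MEFs were 31.7-fold above ESCs (log2 difference 3.98, limma adjusted p = 7.65e-10), EpiSCs 2.83-fold above (0.88, adjusted p = 0.000575), and 2CLCs were below ESCs (-0.59, adjusted p = 0.00530). The 2CLC call was lost with median-of-ratios scaling (-0.35, limma adjusted p = 0.0575) and with a pseudocount of 5 (-0.17, adjusted p = 0.0627). Mrps6, whose exons overlap, followed another order, with 84.0 ± 2.61 FPKM in MEFs, 19.7 ± 1.43 in ESCs, 15.0 ± 3.73 in EpiSCs and 3.33 ± 0.512 in 2CLCs.

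Slc6a6 was 76.4, 74.7 and 76.3 FPKM in MEFs, 47.6, 45.3 and 47.6 in ESCs, 32.9, 25.7 and 26.3 in EpiSCs, and 8.43, 6.71 and 9.56 in 2CLCs. No groups overlapped, and the order was that of Nfat5. Against ESCs the log2 difference was 0.68 in MEFs, -0.71 in EpiSCs and -2.38 in 2CLCs (limma adjusted p = 0.000185, 0.000224 and 4.80e-09).

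Slc38a2 was 65.8, 64.9 and 65.5 FPKM in MEFs, 52.9, 51.8 and 53.5 in ESCs, and 12.5, 12.01 and 14.2 in 2CLCs. In EpiSCs it was 100.2 in replicate 1 and 41.1 and 41.2 in the other 2, so the EpiSC group straddled ESCs and MEFs. 2CLCs were below ESCs (-1.95, limma adjusted p = 3.67e-05), while EpiSCs and MEFs were not called against ESCs (0.07 and 0.31, adjusted p = 0.870 and 0.322). Without EpiSC replicate 1 both were, with -0.35 for EpiSCs (adjusted p = 0.000328) and 0.31 for MEFs (adjusted p = 0.000271), so the direction in EpiSCs rested on that library.

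Akr1b3 was 313, 302 and 302 FPKM in ESCs, 298, 301 and 276 in 2CLCs, 96.6, 106 and 107 in EpiSCs, and 62.1, 63.1 and 65.1 in MEFs. ESCs and 2CLCs did not overlap but lay close, and their log2 difference was not called (-0.07, limma adjusted p = 0.284). That difference was 0.70 with median-of-ratios scaling (adjusted p = 2.75e-07) and -0.58 after quantile normalization (adjusted p = 4.81e-07), so no direction can be given. EpiSCs and MEFs were below ESCs by -1.56 and -2.25 (adjusted p = 1.05e-09 and 1.24e-11).

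Aqp3 was 11.7, 11.7 and 12.3 FPKM in 2CLCs and 10.2, 8.91 and 9.49 in ESCs. It was 0.402, 0.422 and 0.321 in MEFs, and in EpiSCs it was listed at 0 in 2 libraries and at 0.0408 in 1. The groups did not overlap, and 2CLCs were above ESCs by 0.29 (limma adjusted p = 0.00308), by 1.004 with median-of-ratios scaling and by 0.70 after quantile normalization. With a pseudocount of 0.1 the call was lost (0.32, adjusted p = 0.105). Against ESCs the log2 difference was -2.93 in MEFs and -3.38 in EpiSCs (adjusted p = 1.49e-11 and 3.02e-11).

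Hspa4l was 7.56, 7.45 and 7.58 FPKM in MEFs, 2.58, 3.31 and 2.74 in EpiSCs, 0.474, 0.492 and 0.590 in ESCs, and 0.493, 0.384 and 0.383 in 2CLCs. ESCs and 2CLCs overlapped and were not called apart (-0.10, limma adjusted p = 0.301). That difference was -0.29 after quantile normalization (adjusted p = 0.00618) and 0.16 under median-of-ratios scaling (adjusted p = 0.104), so no direction can be given. MEFs and EpiSCs were above ESCs by 2.49 and 1.35 (adjusted p = 1.46e-10 and 9.06e-08).

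For each of the 6 members tested in both experiments, the 2 genes with the nearest pattern were sought among 9823 genes by the root mean square difference over 5 log2 differences, those of 2CLCs, EpiSCs and MEFs from ESCs and of 60 and 80 mM from 0 mM. These 5 share their ESC and their 0 mM libraries, and the search is a description with no test. The nearest genes were Lasp1 (0.197) and S1pr2 (0.215) for Nfat5, and Lasp1 (0.211) and St6galnac6 (0.235) for Slc6a6. For Akr1b3 they were Pigl (0.0518) and Cep55 (0.120), and for Slc38a2 they were Zcchc14 (0.0702) and Crtc2 (0.0885). Sgk1 and Aqp3 had no gene so near: the nearest were Tet2 (0.502) and Slc38a4 (0.563) for Sgk1, and Galnt6 (0.386) and Zfp977 (0.390) for Aqp3.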

How the data were processed

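Total RNA of 21 libraries was taken with a Trizol protocol, made into libraries with a TruSeq kit and run on a MiSeq, per the labels. The submitters' processing notes name HISAT2 2.0.4, StringTie 2.1.4 and mm10; the annotation was not given in the sources used here. The deposited values are FPKM, normalized by the authors, with separate tables for cell states and lactate. FPKM times gene length fell on no common step (0.81 to 2.64% of single-exon genes at the commonest value), so reads were not recovered and depth is unknown. Entries sharing a name were summed. limma 3.58.1 in R 4.3.3 was fitted to log2(FPKM + 1) with a mean trend, all groups of a table in 1 fit, for genes reaching 1 FPKM in 3 or more libraries. On simulated data with 200 changed genes, a change of 1 (log2) was recovered in 82 to 91% of these for the 6 cell-state comparisons. For lactate it was recovered in 99%. A change of 0.5 was recovered in 46 to 59% and 83 to 91%, with 2.15 to 8.21% false among the calls. More than 200 genes were called in every comparison of the measured data. The recovery rates were not split by expression level. They therefore cannot be applied to genes near or under 1 FPKM, such as Slc6a12, Slc5a3 and Hspa4l in ESCs.

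Groups came from the labels, and tables were tested separately. The 9 genes and all lists were chosen with earlier results of these data known. Named list genes were up to 3 per list at 80 against 0 mM, and up to 2 per cell-state comparison, with the largest called change and at least 5 FPKM. Aqp9, Mip, the fibroblast marker genes given singly, and Hspb1 and Vegfc at 60 mM were named after their values were seen. Alternatives were pseudocounts of 0.1 and 5, median-of-ratios and quantile scaling, a filter of 5 FPKM or none, no trend, a replicate block, the compared groups only, each library left out and, added after seeing the data, a filter of 0.5 FPKM. Promoters are RefSeq's. Python 3.11.15 with pandas 2.3.3, numpy 2.4.6, scipy 1.17.1 and matplotlib 3.10.9 handled tables and plots.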

Additional observations from a re-analysis of the deposited data

How the results depend on the processing

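Over all alternatives, 1110 of the members' log2 differences kept their direction and side of the threshold, 6 changed sign with no call under either setting, 17 lost a call, 11 gained one, and 2 changed sign with a call. These 2 were Akr1b3 in 2CLCs against ESCs with median-of-ratios scaling (0.70) and Slc38a2 in EpiSCs against ESCs without EpiSC replicate 1 (-0.35, from -0.35 to 0.28 on leaving out single libraries). With Slc6a12 counted, leaving out single libraries gave 1 to 3 members called at 80 against 60 mM, with 1 of 6 tested without any 80 mM library, since Slc6a12 then falls under the filter; all genes called there fell from 819 to 360 to 491, and to 456 with no filter. The full tonicity enhancer consensus stood at 1 gene where the core stood at 2. Same-numbered libraries showed little shared deviation (correlations across genes from -0.066 to 0.103 over 27 pairs), so no pairing by replicate number was seen. With 3 libraries per group, a weak pairing could go unseen. The replicate block left 5, 5 and 3 members called, Slc6a12 included, at 60 against 0, 80 against 0 and 80 against 60 mM, and 623 genes in all at 80 against 60 mM. Of the members it moved the calls of Slc38a2 and Aqp3 at 80 against 60 mM only (adjusted p = 0.0503 and 0.0461 with limma). The unknown depth limits what can be said of Hspa4l, Slc5a3 and Slc6a12 in ESCs, all near or under 1 FPKM.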
